A study of Mus musculus with 8 samples.

Results

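The TNF superfamily ligands and receptors were described in tumours that KPC cells, a line from mouse pancreatic ductal adenocarcinoma, formed after implantation into the pancreas of C57BL/6 mice. For 2 weeks the mice received either saline (Saline, 4 libraries) or TLQP21 (4 libraries), which is a fragment of the secreted neuronal protein VGF. The labels name the cell type as pancreatic cancer cells, but RNA was taken from tumour samples, which also hold host cells. Members were the protein-coding rows of the deposited count table whose symbol starts with Tnfsf or Tnfrsf and a digit, plus Tnf, Lta, Ltb, Ltbr, Cd40, Cd40lg, Fas, Fasl and Cd27. This gave 40 of 54532 genes, 16 ligands and 24 receptors, chosen by a rule on names, though earlier results of these data were known. Both groups carry the same implanted line in the same strain, and the labels give neither the age of the mice nor the dose. The series asks what accompanies the reduced tumour growth that its design text reports for TLQP21.

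Ligands of the family are mostly membrane-bound trimers that can be shed, and they act on receptors with cysteine-rich outer domains. Receptors with a death domain (Tnfrsf1a, Fas, Tnfrsf10b, Tnfrsf21 and Tnfrsf25) can recruit adaptors that lead to caspases. Most others bind TRAF adaptors and lead to NF-kappaB, and several costimulate T or B cells. Tumour epithelium, stroma and leukocytes all contribute such transcripts in a pancreatic tumour, and in whole tumours fewer cells of a type and less RNA per cell cannot be told apart.

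The libraries held 28358465 to 28963457 counts in Saline and 29027480 to 33536087 in TLQP21. The summed ductal and tumour epithelium markers (Krt8, Krt18, Krt19, Krt7, Epcam and Muc1) reached 5713 to 6186 CPM in Saline and 6149 to 6411 in TLQP21, where CPM is the count scaled by library total (trimmed-mean corrected). Epithelial transcripts of the labelled kind were thus present in every library. Libraries 1 and 2 of each group had Xist, and libraries 3 and 4 had Y-linked transcripts, a split that the labels do not mention. Saline 2 alone had 4041 CPM of hepatocyte markers, against 5.58 to 9.27 in the other libraries. Acinar markers summed to 8216 to 38380 CPM in Saline and 7792 to 21577 in TLQP21, above the epithelial sum in every library. Saline 4 had the most acinar markers (38380 CPM), fibroblast markers (11117 CPM) and neutrophil markers (730.1 CPM) of the 8 libraries. TLQP21 4 had the highest value of 26.8% of all tested genes and the lowest of 27.2%. It was nonetheless highest for 2 and lowest for 14 of the 38 tested members. Saline 2 was highest for 12 members, against 10.6% of all genes, and Saline 4 for 11, against 16.5%.

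Ltb, Tnf and Lta lie side by side on chromosome 17 and all had lower means in TLQP21, so their promoters are shown here, with that of Tnfrsf9, the receptor 4-1BB (the second of its annotated starts). The sequences come from RefSeq on GRCm38.p6 and run 5′ to 3′ from 250 bases before to 50 bases after the start of transcription. Capitals mark matches to the NF-kappaB consensus (kappaB site) on either strand, where matches that overlap are merged.
Ltb (chr17:35194257-35194556, strand +): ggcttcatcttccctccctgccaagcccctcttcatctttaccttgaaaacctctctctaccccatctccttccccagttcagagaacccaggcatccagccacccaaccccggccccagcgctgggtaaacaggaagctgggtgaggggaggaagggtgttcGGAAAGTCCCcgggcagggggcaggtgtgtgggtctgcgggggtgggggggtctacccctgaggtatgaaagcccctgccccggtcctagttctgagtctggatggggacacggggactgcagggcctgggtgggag
Tnf (chr17:35201958-35202257, strand -): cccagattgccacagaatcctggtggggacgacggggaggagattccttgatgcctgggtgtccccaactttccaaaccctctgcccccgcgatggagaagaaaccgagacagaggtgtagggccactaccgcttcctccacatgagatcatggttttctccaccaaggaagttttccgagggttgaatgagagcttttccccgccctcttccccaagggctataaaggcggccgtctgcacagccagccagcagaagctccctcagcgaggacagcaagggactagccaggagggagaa
Lta (chr17:35205302-35205601, strand -): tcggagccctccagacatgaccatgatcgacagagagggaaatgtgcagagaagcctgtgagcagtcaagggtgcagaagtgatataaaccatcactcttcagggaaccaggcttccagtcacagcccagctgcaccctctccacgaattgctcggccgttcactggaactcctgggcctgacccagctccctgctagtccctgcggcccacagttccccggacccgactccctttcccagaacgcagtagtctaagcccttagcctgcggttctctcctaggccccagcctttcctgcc
Tnfrsf9 (chr4:150927749-150928048, strand +): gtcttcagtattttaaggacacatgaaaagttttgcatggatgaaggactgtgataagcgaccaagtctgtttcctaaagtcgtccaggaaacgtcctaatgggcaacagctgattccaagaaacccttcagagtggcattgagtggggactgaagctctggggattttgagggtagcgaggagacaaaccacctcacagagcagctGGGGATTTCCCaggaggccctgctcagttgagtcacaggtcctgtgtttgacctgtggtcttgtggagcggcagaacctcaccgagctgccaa
In these windows Ltb had a match from 87 bases before the start and Tnfrsf9 a pair of overlapping matches from 43 and 42 bases before it. The window at the other annotated start of Tnfrsf9, which is not shown, held 0 matches. Of the 31 members found in the promoter table by symbol, 4 held a match (12.9%), against 9.6% of all 27025 symbols. The other 2 were Tnfrsf8 and Tnfrsf25. A match describes letters only, and the absence of one in the Tnf and Lta windows says nothing of sites elsewhere.

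Receptors stood above ligands in level. On a scale of CPM per kilobase of gene length, which allows genes to be compared, the median of the genes' means was 6.36 for the 24 receptors and 1.79 for the 16 ligands. Of 11 members with a mean above 10, 9 were receptors. Tnfrsf12a, the receptor of the cytokine TWEAK, led with a mean of 98.9 CPM per kilobase (44.4 to 115 across libraries). It was followed by the TNF receptor Tnfrsf1a at 63.3 (57.6 to 75.1), the lymphotoxin receptor Ltbr at 48.1 (35.5 to 53.8) and the other TNF receptor, Tnfrsf1b, at 44.2 (32.0 to 66.7). The ranges of these neighbours overlapped except between Tnfrsf1a and Ltbr. The most abundant ligands were Ltb at 11.8 (3.77 to 16.03), Tnf at 10.3 (3.61 to 17.9) and Tnfsf9, the ligand of 4-1BB, at 8.80 (up to 13.3), with overlapping ranges.

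**Figure D1:**
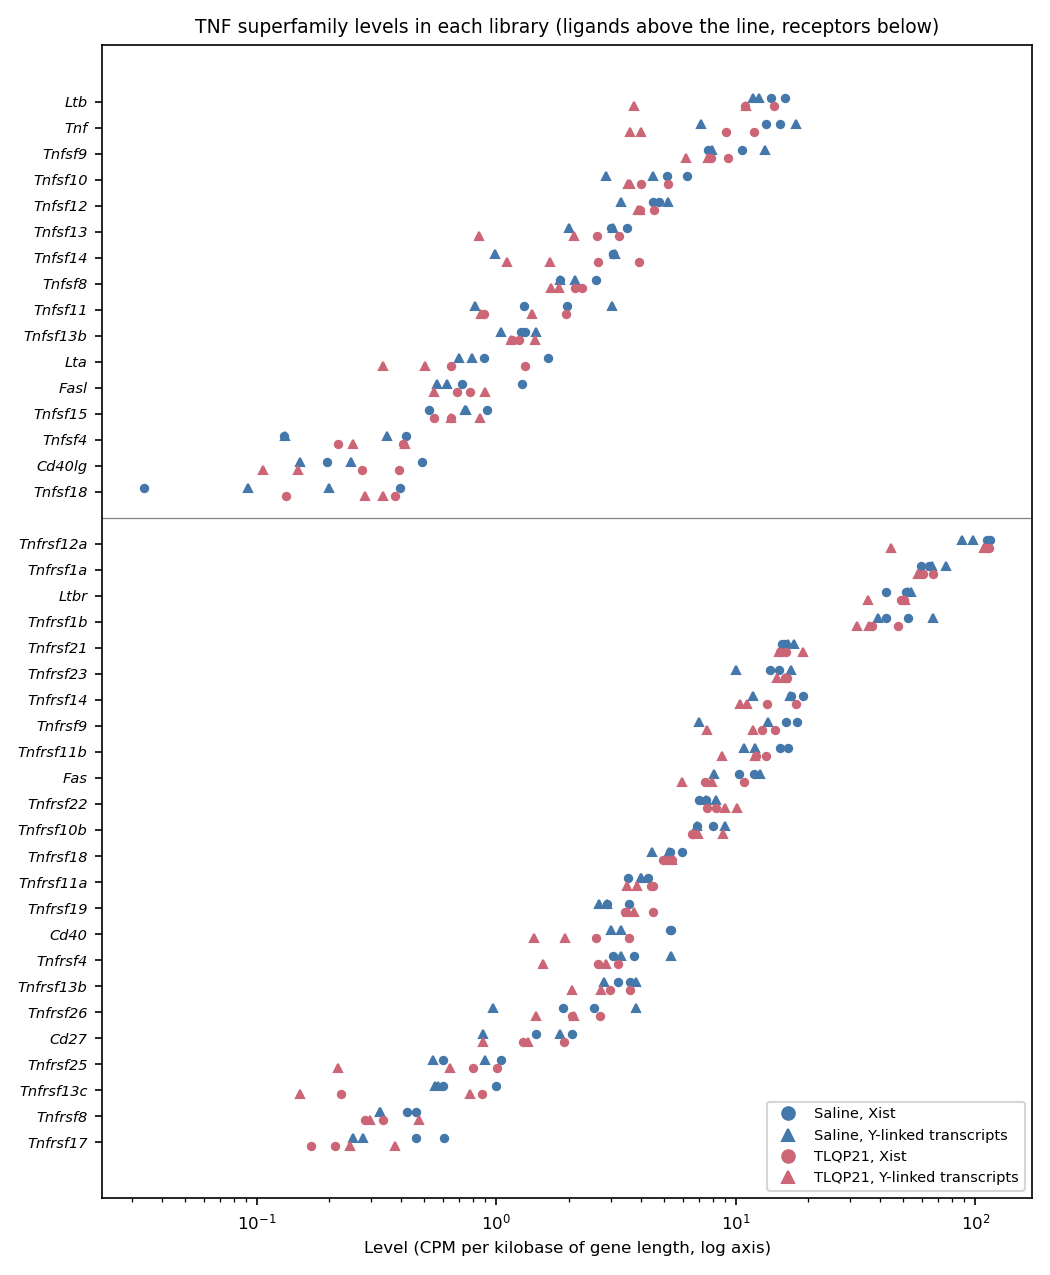
Level of each member in each library, in CPM per kilobase of gene length on a log axis, with ligands above the line and receptors below. Colours mark the groups and symbols show whether a library had Xist or Y-linked transcripts; Tnfrsf12a has the highest mean (98.9) and Tnfsf18 the lowest (0.231).

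At the low end, 10 members had means below 1 CPM per kilobase, 6 of them ligands. Tnfsf18, the ligand of GITR, was lowest with 0.231, and Tnfsf4, the ligand of OX40, had 0.290. Cd40lg, the T cell ligand of CD40, had 39 reads summed over Saline and 37 over TLQP21. Tnfrsf17, the plasma cell receptor BCMA, had 37 and 26 reads. Both missed edgeR's filter on low counts, so 38 of the 40 members were tested. Across libraries ligands varied more than receptors: the highest library exceeded the lowest by a median factor of 3.49 for ligands and 1.87 for receptors. Ligands also stood lower in level, and the part of few reads in this contrast was not tested. Tnfrsf21, a death-domain receptor, had the smallest factor (1.26), and Tnfsf18, at 2 to 27 reads a library, the largest (11.7).

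In 18 of 21 ligand and receptor pairs, the receptor had the higher mean per kilobase. Tnfrsf12a exceeded its ligand Tnfsf12 by a factor of 23.1, Tnfrsf1a exceeded Tnf by 6.15, and Fas exceeded Fasl by 12.3. The ligand was higher in the pairs Tnfsf8 with Tnfrsf8, Tnfsf13 with Tnfrsf17 and Tnfsf13b with Tnfrsf13c. The first of these ligands binds CD30, and the other 2, APRIL and BAFF, sustain B and plasma cells. Tnfsf15 and its receptor Tnfrsf25 lay close together (0.702 and 0.718). In 16 of 19 pairs with both genes tested, both log2 fold changes lay below 0, and in 0 both lay above. Since 31 of the 38 tested members lay below 0 and several genes recur among the pairs, this count is no separate evidence.

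Between the treatments, no member passed the test. With edgeR's quasi-likelihood test, adjusted over 18238 genes, 0 members were called higher and 0 lower in TLQP21, as for all genes (0% and 0%). At an unadjusted p under 0.05, 1 member was lower (Cd40) and 1 higher (Tnfrsf19), that is 2.63% each of 38, against 2.26% of all genes lower and 0.795% higher. DESeq2 called 0 of 40 members, with 4 lower and 1 higher at an unadjusted p under 0.05. Its shares of all genes were 1.67% lower and 0.61% higher, over 32646 genes without the filter on low counts. These shares are therefore not on the footing of those from edgeR. With limma's voom and sample weights 0 were called, with 8 of 38 lower and 1 higher, against 6.62% of all genes lower and 3.98% higher. The edgeR count of lower members was 7 without TLQP21 1, when 4.07% of all genes were lower, and 4 without Saline 3 (2.95% of all genes). It was 2 without TLQP21 2 (1.37%), 0 without TLQP21 3 (1.47%) and 0 without TLQP21 4 (2.17%). No member was higher without Saline 3, Saline 4 or TLQP21 2, and 2 were higher without TLQP21 1, when 1.52% of all genes were. In no member were the ranges of the groups separate, against 0.844% of all genes separate with TLQP21 lower and 0.811% with TLQP21 higher.

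Most members nevertheless had a log2 fold change (TLQP21 minus Saline) below 0: 31 of 38 (81.6%), against 49.4% of all genes tested. The median log2 fold change was -0.15 for members and 0.00 for all genes. By kind, 13 of 15 tested ligands lay below 0 (median -0.14) and 18 of 23 receptors (-0.15). Leaving out single libraries gave 29 to 32 members below 0, and the median was -0.28 without TLQP21 1 and -0.24 without Saline 3. The 95% interval lay within 2-fold in both directions for 26 members (68.4%), against 79.6% of all genes. For 1 member, Cd40, it excluded 0 and reached beyond 2-fold lower (2.63%), against 1.61% of all genes.

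**Figure D2:**
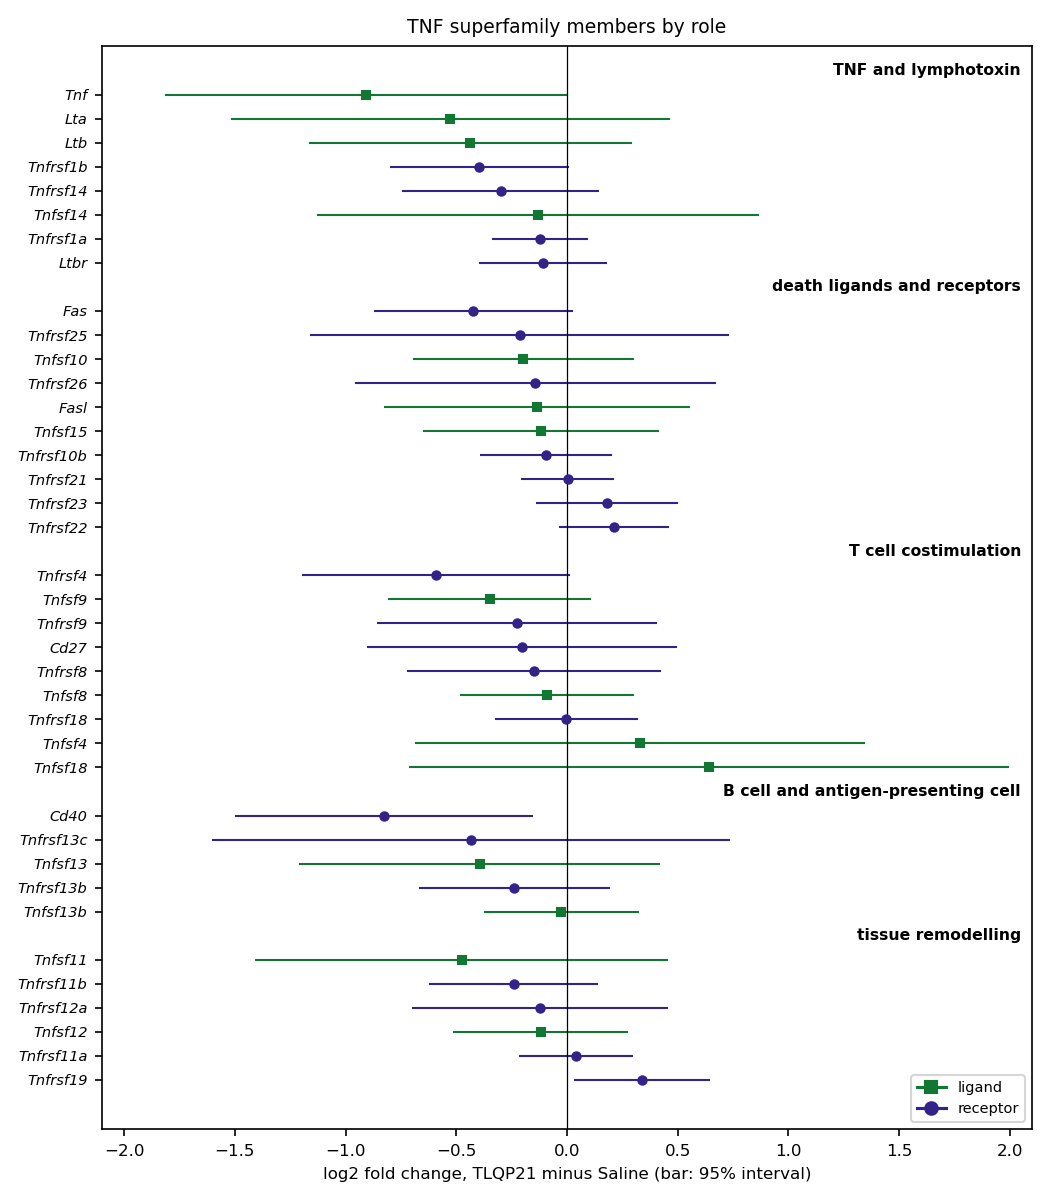
log2 fold change (TLQP21 minus Saline) of the 38 tested members with 95% intervals from edgeR, by role; squares are ligands and circles receptors. The interval excludes 0 for Cd40 (-1.501 to -0.155) and Tnfrsf19 (0.03 to 0.64), and Tnf has the lowest value (-0.91).

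Among TNF, the lymphotoxins and their receptors, all 8 genes lay below 0 (median log2 fold change -0.35), with 0 called. The median was -0.18 without TLQP21 4, when 7 of 8 lay below 0, and -0.20 without Saline 2. Tnf, the inflammatory cytokine of macrophages and T cells, was at 21.9, 25.1, 11.8 and 29.3 CPM in Saline 1 to 4. In TLQP21 1 to 4 it was at 19.5, 15.0, 5.91 and 6.58 CPM. TLQP21 1 and 2 lay above Saline 3, so the groups overlapped, and the lowest values were those of TLQP21 3 and 4. The means were 22.0 ± 7.48 and 11.7 ± 6.61 CPM (SD, n = 4), with a log2 fold change of -0.91 (SE 0.41, 95% interval -1.81 to 0.00078). Within the libraries with Xist both TLQP21 values lay below both Saline values (log2 ratio of the means -0.45), and so they did within those with Y-linked transcripts (-1.72). The share of all genes that did so was not computed. The interaction of treatment and split did not pass edgeR's test for any member (smallest adjusted p = 0.842).

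Tnfrsf1b, the TNF receptor found mainly on leukocytes and endothelium, was at 200.2, 162, 150.0 and 255 CPM in Saline 1 to 4 and at 182, 142, 137 and 122 in TLQP21 1 to 4. Saline 4 was highest, and TLQP21 1 lay among the Saline values. The log2 fold change was -0.40 (SE 0.18, 95% interval -0.80 to 0.01), and it was -0.23 without Saline 4. Tnfrsf1a, the broadly expressed TNF receptor with a death domain, was at 153, 167, 170.2 and 194 CPM in Saline and at 172, 157, 149 and 150.2 in TLQP21. Those ranges overlapped, and the log2 fold change was -0.12 (95% interval -0.34 to 0.09), or -0.061 without Saline 4.

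Ltb, the membrane anchor of lymphotoxin, was at 21.3, 24.3, 18.9 and 17.9 CPM in Saline and at 21.9, 16.5, 16.7 and 5.71 in TLQP21. TLQP21 4 was far below all other libraries, and the log2 fold change of -0.44 (SE 0.33) became -0.16 without it and -0.66 without TLQP21 1. Its receptor Ltbr was at 99.9, 121, 127 and 123 CPM in Saline and at 118, 115, 119.6 and 83.5 in TLQP21, with TLQP21 4 again lowest (log2 fold change -0.11, SE 0.13). That value was -0.0041 without TLQP21 4, -0.18 without Saline 1 and -0.0698 without Saline 3. Tnfrsf14, the receptor HVEM that binds the ligand LIGHT, was at 24.4, 27.4, 24.3 and 17.0 CPM in Saline and at 25.6, 19.3, 15.9 and 14.9 in TLQP21. Its groups overlapped through TLQP21 1 and Saline 4, and the log2 fold change of -0.30 (SE 0.20) was -0.48 without TLQP21 1 and -0.20 without TLQP21 4. Lta, soluble lymphotoxin, had a log2 fold change of -0.53 (SE 0.44) at 0.463 to 2.28 CPM, and Tnfsf14, which encodes LIGHT, had -0.13 (SE 0.45).

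The highest Tnf and Tnfrsf1b values were in Saline 4, the library with the most neutrophil markers. Summed over S100a8, S100a9, Csf3r, Cxcr2, Mmp8 and Ly6g, these came to 207 to 730.1 CPM in Saline and 141 to 294 in TLQP21, and all 6 had lower means in TLQP21. Macrophage and monocyte markers (Adgre1, Cd68, Csf1r, Mrc1, Ly6c2 and Fcgr1) summed to 641 to 722 and 525 to 737 CPM, with 5 of 6 lower in mean. The part of either in the values of Tnf and its receptors was not tested. Lower means in TLQP21 were also seen outside leukocytes, in 6 of 6 acinar and 5 of 6 fibroblast markers. Of the 6 ductal and tumour epithelium markers, 1 was lower.

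**Figure D3:**
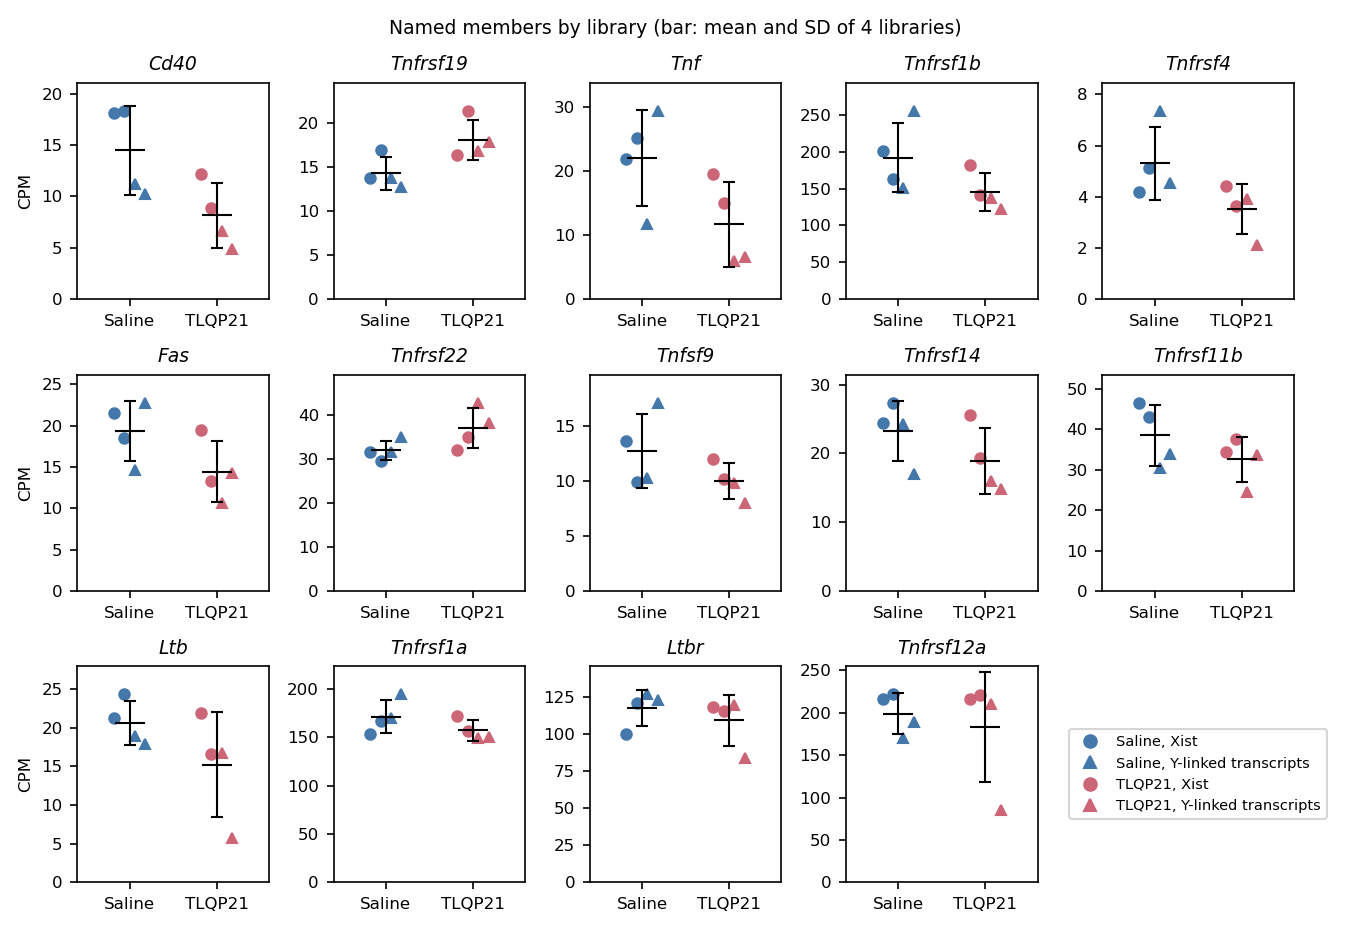
CPM of 14 members in each library, with the mean and SD of the 4 libraries of a group; colours mark the groups and symbols show whether a library had Xist or Y-linked transcripts. The groups overlap in every panel, and TLQP21 4 stands apart for Tnfrsf12a (85.8 CPM) and Ltb (5.71 CPM).

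Of the 7 genes of B cells and antigen-presenting cells, all 5 tested lay below 0 (median log2 fold change -0.40), with 0 called. This median was -0.13 without TLQP21 4, -0.25 without Saline 2, -0.26 without TLQP21 2 and -0.64 without TLQP21 1, and 4 of 5 lay below 0 without TLQP21 2 or without TLQP21 3. Cd40, the receptor through which T cells license dendritic cells, macrophages and B cells, was at 18.1, 18.3, 11.3 and 10.2 CPM in Saline 1 to 4. In TLQP21 1 to 4 it was at 12.2, 8.90, 6.61 and 4.91 CPM. TLQP21 1 exceeded Saline 3 and 4, and both groups were lower in libraries 3 and 4. The means were 14.5 ± 4.32 and 8.16 ± 3.16 CPM (SD, n = 4), with a log2 fold change of -0.83 (SE 0.30, 95% interval -1.501 to -0.155) and an adjusted p of 0.9999 over all genes with edgeR.

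Cd40 was lower in TLQP21 without overlap within the libraries with Xist (log2 ratio -0.79) and within those with Y-linked transcripts (-0.90). Of the 38 tested members, 2 were lower in this way in both kinds, Cd40 and Tnf, and 1 was higher, Tnfrsf22. The share over all genes was not computed, so these counts have no background to be read against. Leaving out each library gave -1.09 to -0.65 for Cd40. Adjusted p-values for Cd40 over all alternatives ran from 0.299 (limma's voom) to 0.99998, and none passed.

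Tnfrsf13b, the receptor TACI, had means of 9.54 ± 1.25 CPM in Saline and 8.09 ± 1.82 in TLQP21. Tnfrsf13c, the BAFF receptor of mature B cells, ran from 0.309 to 2.03 CPM across libraries (log2 fold change -0.43, SE 0.52). Tnfsf13b, which encodes BAFF, was nearly level at 8.72 ± 1.19 and 8.57 ± 0.946 CPM (-0.03, 95% interval -0.38 to 0.33). Tnfsf13, which encodes APRIL, was at 4.75 ± 1.04 and 3.62 ± 1.67 CPM. Its count is uncertain, since 60.0% of its exon bases are shared with the read-through gene Tnfsfm13 on the same strand, and 48.3% of those of Tnfsf12 are. B and plasma cell markers (Ms4a1, Cd79a, Cd79b, Jchain and Mzb1) summed to 98.8 to 236 CPM in Saline and 83.4 to 214 in TLQP21, lowest in TLQP21 4, and all 5 had lower means in TLQP21. Dendritic cell markers (Flt3, Xcr1, Clec9a, Zbtb46, Ccr7 and Siglech) summed to 29.4 to 48.3 CPM in Saline and 32.6 to 36.7 in TLQP21, with 4 of 6 lower in mean. The part of either in the values of these genes was not tested.

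Of 9 genes of T cell costimulation, 7 lay below 0 (median log2 fold change -0.15), with 0 called. The median came to -0.05 without Saline 1 or TLQP21 4 and to -0.07 without Saline 2 or TLQP21 3. Tnfrsf4, the receptor OX40 of activated and regulatory T cells, was at 4.19, 5.15, 7.34 and 4.54 CPM in Saline and at 4.41, 3.63, 3.92 and 2.13 in TLQP21. Saline 3 was highest and TLQP21 4 lowest, and Saline 1 lay below TLQP21 1. The log2 fold change was -0.59 (SE 0.27, 95% interval -1.20 to 0.01), and -0.39 without Saline 3. Tnfsf9 was at 13.6, 9.91, 10.3 and 17.1 CPM in Saline and at 11.97, 10.1, 9.83 and 7.998 in TLQP21. Its log2 fold change of -0.35 (SE 0.21) was -0.18 without Saline 4, the highest library. A noncoding gene on the opposite strand shares 14.9% of the exon bases of Tnfsf9.

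Most other costimulatory genes had log2 fold changes nearer 0. Tnfrsf9 was at 37.3 ± 13.1 and 31.8 ± 8.11 CPM (-0.23, SE 0.28), with its lowest values in Saline 3 (19.1) and TLQP21 3 (20.7). Tnfrsf18, the receptor GITR of regulatory T cells, was at 8.004 ± 0.934 and 7.99 ± 0.342 CPM, and the 95% interval of its log2 fold change ran from -0.32 to 0.32. An antisense gene shares 27.2% of the exon bases of Tnfrsf18. Cd27, a receptor of naive and memory lymphocytes, was at 3.63 ± 1.21 and 3.16 ± 0.990 CPM. Tnfsf8 and Tnfrsf8 (CD30) had log2 fold changes of -0.09 and -0.15. Against this direction Tnfsf4 (0.33, SE 0.46) and Tnfsf18 (0.64, SE 0.61) lay above 0, both below 1 CPM in every library. T cell markers (Cd3d, Cd3e, Cd3g, Cd2, Lck and Trac) summed to 35.02 to 56.6 CPM in Saline and 39.0 to 57.3 in TLQP21, with 3 of 6 lower in mean, and those of NK cells to 7.07 to 15.02 and 6.54 to 13.99, with 5 of 6 lower.

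Among the 10 death ligands and receptors, 7 lay below 0 (median log2 fold change -0.13), with 0 called. This median was -0.05 without Saline 1 or TLQP21 3, -0.06 without Saline 2 or Saline 4, and -0.08 without TLQP21 2. Fas, the death receptor CD95, was at 21.5, 18.5, 14.6 and 22.8 CPM in Saline and at 19.4, 13.4, 10.7 and 14.3 in TLQP21. Of the TLQP21 libraries, TLQP21 1 alone exceeded Saline 3, the lowest of its group. The log2 fold change was -0.42 (SE 0.20, 95% interval -0.87 to 0.03). Fasl, made by cytotoxic lymphocytes, was at 1.54 ± 0.640 and 1.41 ± 0.282 CPM, and its log2 fold change turned from -0.14 to 0.19 without Saline 2.

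The TRAIL pair was Tnfsf10 (24.7 ± 7.47 and 21.6 ± 3.98 CPM) and its death receptor Tnfrsf10b (42.0 ± 5.67 and 39.4 ± 5.88). Tnfrsf21 was at 67.4 ± 3.26 and 67.5 ± 7.56 CPM, with a 95% interval of -0.21 to 0.21 for its log2 fold change. Tnfrsf22 and Tnfrsf23, TRAIL-binding receptors without a death domain, lay above 0, unlike most of the family. Tnfrsf22 was at 31.6, 29.5, 31.5 and 34.9 CPM in Saline and at 32.1, 34.8, 42.7 and 38.1 in TLQP21, with Saline 4 above TLQP21 1 and 2. Its log2 fold change was 0.21 (SE 0.11, 95% interval -0.03 to 0.46), or 0.14 without TLQP21 3, and that of Tnfrsf23 was 0.18 (SE 0.14). They are neighbours on chromosome 7, and 8.97% of the 100-base windows of the Tnfrsf22 transcripts also occur in those of Tnfrsf23, so part of their reads could have come from either. Tnfrsf26, in the same cluster, shared 0 windows with either and was at 7.42 ± 3.83 and 6.72 ± 1.64 CPM, with a log2 fold change of -0.14 that turned to 0.20 without Saline 4.

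Of 6 genes of tissue remodelling, 4 lay below 0 (median log2 fold change -0.12), with 0 called. Left-out libraries gave medians of -0.02 (TLQP21 4), -0.07 (Saline 2 or Saline 4), -0.19 (TLQP21 1) and -0.21 (Saline 3). Tnfrsf19, the receptor TROY of epithelial and neural progenitors, was at 13.8, 17.0, 13.8 and 12.7 CPM in Saline and at 16.4, 21.4, 16.8 and 17.9 in TLQP21. Saline 2 alone exceeded any TLQP21 library. The means were 14.3 ± 1.84 and 18.1 ± 2.27 CPM, with a log2 fold change of 0.34 (SE 0.14, 95% interval 0.03 to 0.64). Within the libraries with Xist the groups overlapped (log2 ratio 0.30), and within those with Y-linked transcripts both TLQP21 values lay above both Saline values (0.39).

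Tnfrsf12a, the TWEAK receptor Fn14 of injured and growing tissue, was at 216, 222, 170.0 and 188 CPM in Saline and at 216, 220.4, 210.2 and 85.8 in TLQP21. TLQP21 4 lay below all others, and the log2 fold change turned from -0.12 (SE 0.26) to 0.11 without it. Tnfrsf11b, the secreted decoy receptor osteoprotegerin, was at 46.6, 43.2, 30.4 and 33.9 CPM in Saline and at 34.3, 37.7, 24.6 and 33.7 in TLQP21. Its log2 fold change of -0.24 (SE 0.17) was -0.13 without TLQP21 3 and -0.135 without Saline 1. Its ligand Tnfsf11, which encodes RANKL, was at 3.98 ± 2.16 and 2.86 ± 1.16 CPM. The signalling receptor Tnfrsf11a, or RANK, was at 23.7 ± 1.81 and 24.4 ± 2.81 CPM (0.04, 95% interval -0.22 to 0.30). Tnfsf12, which encodes TWEAK, had a log2 fold change of -0.12 (SE 0.18).

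Downstream of the receptors, lists of pathway genes were examined in the same fit, and 0 genes were called. Of 28 adaptors and proximal signalling genes, 16 lay below 0 (57.1%, median -0.02). With library totals only, 13 lay below 0 and the median was 0.0079, on a scale whose median over all genes was 0.026. It was also at or just above 0 without TLQP21 1 (0.00062) or TLQP21 2 (0.0023), and -0.065 without TLQP21 4. Birc3, an inhibitor of apoptosis that binds TRAF proteins and is itself an NF-kappaB target, was at 79.9 ± 9.53 and 60.5 ± 5.94 CPM (-0.40, SE 0.11). Traf1 was at 32.05 ± 5.15 and 25.5 ± 4.41 CPM, Tank at 45.05 ± 6.61 and 38.96 ± 1.73 (-0.21, or -0.11 without Saline 3), and the linear-ubiquitin protease Otulin at 27.03 ± 1.48 and 30.7 ± 1.92. Traf3 (-0.12) and Tbk1 (-0.11), named after their values were seen, were the adaptors whose groups did not overlap.

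The death machinery showed no common direction, with 8 of 14 below 0 (median -0.06, or 0.011 without Saline 1, -0.0028 without TLQP21 2 and -0.0073 without TLQP21 4). Bid had a log2 fold change of 0.13 (SE 0.09), the caspase 8 regulator Cflar -0.17 (SE 0.12) and Bax -0.18 (SE 0.18). For Bax, TLQP21 4 alone was low, at 24.5 CPM against 41.9 to 47.7 in the other libraries, and the value without it was -0.012. Cflar had -0.069 without Saline 1. Of 9 proteases and regulators that shed family ligands and receptors, 7 lay below 0 (median -0.09, or -0.019 without Saline 1 and -0.16 without TLQP21 3). Rhbdf2, which matures the TNF sheddase, was at 90.6 ± 12.6 and 78.1 ± 11.1 CPM (-0.21, or -0.12 without Saline 4 and -0.13 without TLQP21 4). Timp3, which inhibits that sheddase, had a log2 fold change of 0.18, which was 0.0748 without Saline 4 and 0.31 without Saline 3. Furin had -0.16 (-0.26 without Saline 3, -0.0748 without TLQP21 4) and Mmp7 -0.25 (0.0048 without Saline 1). The sheddase Adam17 itself was at 125 ± 5.32 and 121 ± 12.2 CPM.

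Family members outside the name rule numbered 6, and 4 of them were tested, with a median of -0.07. Relt, a lymphoid receptor, had -0.21 (SE 0.26), the neurotrophin receptor Ngfr -0.13 (SE 0.36), the ectodysplasin gene Eda 0.12 (SE 0.34) and its receptor Eda2r -0.01 (SE 0.15). Without TLQP21 4, the library lowest for Relt, 0 of 4 lay below 0, and with limma's voom 1 of 4 did (median 0.11). Cd70, the ligand of CD27, had 3 reads in all of Saline and 16 in all of TLQP21. Edar, another ectodysplasin receptor, had 1 and 1.

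Among NF-kappaB targets of TNF signalling, all 27 lay below 0 (median log2 fold change -0.53), and 13 had an unadjusted edgeR p under 0.05, against 2.26% of all genes lower at that level. The values nearest 0 were those of Nfkb1 (-0.03, SE 0.12) and Vcam1 (-0.08, SE 0.20). The median was -0.30 without Saline 4, when 25 of 27 lay below 0. With an unadjusted edgeR p under 0.05, 9 remained without Saline 4, 7 without TLQP21 2 and 8 without TLQP21 3. Saline 4 was the highest library for most, though not all, of the targets, against 16.5% of all genes. Cxcl2 was at 256 CPM there and at 47.0 to 59.3 in the other Saline libraries. Il6 was at 3.98, 2.66, 32.4 and 32.2 CPM in Saline 1 to 4 and at 3.11, 2.65, 15.1 and 25.6 in TLQP21 1 to 4. Several of the 27 targets were already known to lie lower from earlier results on the same libraries. Neither their direction nor the counts of low p-values are therefore independent evidence. Icam1, a leukocyte adhesion molecule, was at 119.0, 125, 119.7 and 124 CPM in Saline and at 109, 90.2, 79.2 and 74.6 in TLQP21, without overlap. Its means were 122 ± 2.99 and 88.2 ± 15.3 CPM (-0.47, SE 0.12).

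In 4 of the 27 targets the groups were separate, all with TLQP21 lower, against 0.844% of all genes separate in that direction. The list was drawn up with earlier results known, so that share is no fair background for it. Besides Icam1 the separate targets were Nfkbie, an inhibitor of NF-kappaB (-0.37, SE 0.12), and the chemokines Ccl2 (-1.01, SE 0.24) and Ccl20 (-0.69, SE 0.20). Tnfaip2 was at 299 ± 62.5 and 209 ± 33.3 CPM (-0.52, SE 0.16). Nfkbie, Tnfaip3, Nfkb1, Vcam1, Cxcl2, Il6 and Adam17 were also chosen after their values were seen. Tnfaip3, the feedback inhibitor A20, was at 146 ± 55.4 and 101 ± 21.9 CPM (-0.53, SE 0.26).

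**Figure D4:**
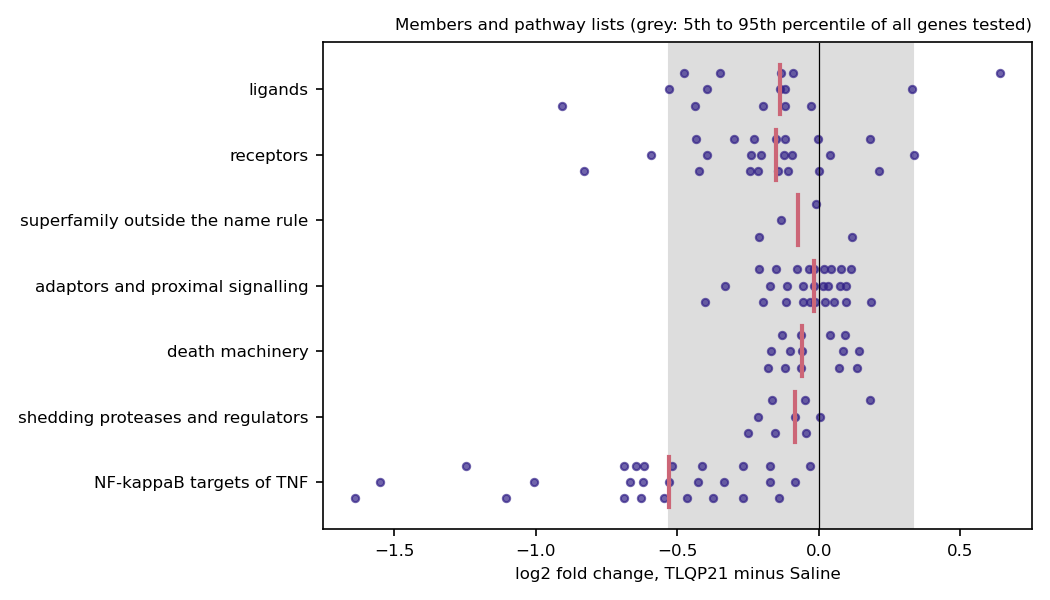
log2 fold change (TLQP21 minus Saline) of the tested genes of each list, 1 point per gene, with the median as a bar; grey spans the 5th to 95th percentile of all genes tested (-0.53 to 0.33). Adaptors centre near 0 (-0.02), ligands and receptors lie at -0.14 and -0.15, and the NF-kappaB targets at -0.53.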

How the data were processed

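Column-purified RNA from whole tumours was sequenced as 150 bp paired ends, per the labels' protocols. The authors deposited whole-number counts per gene, not normalised, beside gene lengths in bases. HISAT2 2.0.5, featureCounts 1.5.0-p3, DESeq2 1.32.0 and build GRCm38 (mm10) were used, per the submitters' processing notes; neither those notes nor the labels state the strand setting or the annotation release, so counts of overlapping genes are uncertain. In GENCODE M21, 39 of 40 members had the deposited position.

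From the counts, edgeR 4.0.16 in R 4.3.3 (default low-count filter, trimmed-mean scaling, quasi-likelihood test without covariates, Benjamini-Hochberg over 18238 genes, threshold 0.05) compared 4 TLQP21 with 4 Saline libraries. DESeq2 1.42.0, limma 3.58.1, other scalings and filters, a replicate block, the Xist split as covariate, thinned libraries and each library left out were alternatives. The fit was tested on simulated data. Named members were the 12 with the smallest p, Tnf, Fas, Tnfrsf1a, the 3 most abundant per kilobase of each kind and any with separate ranges; lists gave up to 4 genes each by p. Values of 2 genes are not reported here, nor are markers of endothelial, islet, mesothelial and lymph node stromal cells. The members and lists were chosen with earlier results of these data known. Whether each library is a separate mouse is not stated, so the p-values reflect only library-to-library spread, some of which may be technical.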

Additional observations from a re-analysis of the deposited data

Results flagged for a closer look

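A library far from the 3 others of its group was found for 3 genes, always TLQP21 4, among 68 sets of 4 values examined. Chance alone picks out about 1 in 20 such sets. Tnfrsf12a was at 85.8 CPM in TLQP21 4 and at 210.2 to 220.4 in the other TLQP21 libraries. Ltbr was at 83.5 CPM there and at 115 to 119.6 in the others. Bax was at 24.5 CPM and at 41.9 to 45.4 in the others.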

How the results depend on the processing

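In every alternative run, 0 members were called in either direction. Over all genes, 4 were called lower by DESeq2 and 1 by limma's voom, and 0 by edgeR in every setting. The median of the tested members stayed below 0 throughout (-0.28 to -0.12 over left-out libraries). Of the 38 tested members, 26 kept their direction in all 19 alternatives. The 12 others turned in 1 to 7 of them, most often Tnfrsf18 (up to 0.065) and Tnfrsf21 (down to -0.081), at -0.0029 and 0.0023 in the reported fit. Among the genes followed singly, those that turned were Eda2r (0.016 with library totals only, 0.0030 with upper-quartile scaling, 0.0596 with voom, and -0.049 to 0.0206 over left-out libraries), Tnfrsf12a (0.0298 with voom, -0.22 to 0.11), Ltbr (0.0223 with voom) and Ngfr (0.15 with voom, -0.43 to 0.0665). Over left-out libraries alone, Relt ran from -0.42 to 0.012, Eda from -0.10 to 0.38 and Mmp7 from -0.38 to 0.0048. The cause of these turns was not tested. Cd40, Tnf, Tnfrsf19, Tnfrsf1b, Tnfrsf4 and Fas were among the members that kept theirs. Equal replicate numbers are not stated to pair libraries, and deviations of same-numbered libraries correlated from -0.053 to 0.271, with 0 of 4 numbers best matched to their own. With the replicate block, 0 members were called and Cd40 had -0.86 and Tnf -1.001. Genes below 1 CPM were measured with few reads, such as Tnfsf18 with 2 to 27 a library, whose 95% interval ran from -0.72 to 2.00.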
